A study of Mus musculus with 24 samples.

Results

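The genes described here are hephaestin and 9 other genes of iron transport, 10 of the 27962 gene names on the array: Heph, Cp, Tfrc, Tfr2, Trf, Slc40a1, Slc11a2, Cybrd1, Fth1 and Hfe. They were taken by gene name with all of their probes, and the probe with the highest mean intensity was used as the main probe of a gene. Heph entered the list because the study lists 1 of its probes for the diet contrast in the colon, that is, it was selected on the log2 ratios of the 12 colon arrays, so the values of Heph in that contrast are a description without a test. The other 9 genes were chosen for their function, with earlier results of these data known.

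RNA of whole colon and whole liver was measured in 12 female C57BL/6 mice at 12 weeks of age, with both tissues taken from each mouse. All 12 were born to mothers that ate HF-low, in which fat was high and selenium and folate were low, from 7 days before mating until the pups were weaned at about 28 days. From weaning, 6 mice stayed on that diet (HF-low-low) and 6 were moved to HF-suf, as rich in fat but with enough selenium and folate (HF-low-suf), which gave 4 groups of 6 arrays. Each array compared the RNA of 1 mouse (Cy3) with a common pool (Cy5). The paper describes the pool as made of intestinal and liver RNA of all the mice. Every level below is the log2 ratio of Cy3 to Cy5. The dyes were not swapped, so a dye effect of a probe is part of its level but is shared by the groups compared. Since whole tissue was used, fewer cells of a type and less RNA per cell cannot be told apart.

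Cells at the gut surface reduce dietary iron with Cybrd1 (duodenal cytochrome b), import it through Slc11a2 (divalent metal transporter), hold it in ferritin, of which Fth1 is the heavy chain, and release it through Slc40a1 (ferroportin), the known exporter of iron from mammalian cells. Hephaestin, a copper-dependent ferroxidase of the cell membrane, and ceruloplasmin (Cp), its relative in plasma made mostly by the liver, oxidise the iron that leaves the cell so that transferrin (Trf) can carry it. Cells take up loaded transferrin through Tfrc, while Tfr2 and Hfe belong to the hepatocyte system that senses iron and sets the level of hepcidin, the hormone that removes ferroportin from the membrane. Most dietary iron is absorbed in the duodenum, which was not among the tissues measured.

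The 10 genes had 16 probes. Of the main probes 8 were well above background on all 12 colon arrays and 7 on all 12 liver arrays, as were 33.6% and 23.7% of all probes, and 2 of the 16 probes were so on 0 of 24 arrays, as were 23.6% of all probes. Tfr2 was listed on the array as Trfr2 and was found through its RefSeq accession, NM_015799, and the other 9 matched by name. Heph, Slc11a2, Cybrd1 and Hfe had more than 1 probe, and for the first 3 of these the choice of probe decided what was measured. The sequences below are the first 30 bases of the 60-base probes of Heph and Slc11a2 in the orientation given in the files, shown because the probes of each gene gave different results. They are in lower case throughout, with no part marked. In build mm7, the main Heph probe (NM_010417) lay on the plus strand of chromosome X at chrX:91901579-91901638, and the other Heph probe (NM_181273, transcript variant 2) on the same strand at chrX:91858590-91858649. The main Slc11a2 probe (NM_008732) lay on the minus strand of chromosome 15 at chr15:100373147-100373206, the probe for AK148276 at chr15:100378161-100378220 and the second NM_008732 probe at chr15:100395330-100395389. Exon boundaries of that build were not used here.
Heph NM_010417: tagaggacaaagaacataagtatgatgcaa
Heph NM_181273: gtgttttgtaaagacaatgtcatgtaagta
Slc11a2 NM_008732, main: tgctttaatcccaaccagaaataatcatcc
Slc11a2 AK148276: tgttccctattcacttgattgtcactgaaa
Slc11a2 NM_008732, second: gagactctgaggagcccttcaccacctact

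Arrays had a median Cy3 signal of 3.78 to 7.20 times background, and 37.6% to 71.4% of probes were well above background in the colon and 25.6% to 59.0% in the liver. The reference channel of colon HF-low-suf replicate 5 (median 18.1 times background) and of liver HF-low-suf replicate 4 (12.7 times) stood apart from the other 22 arrays (5.41 to 7.54 times), and for several results the values without these mice are given as well. The tissue labels were borne out by the markers: all 6 hepatocyte markers measured were higher in the liver and all 7 colon epithelium markers were lower there.

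Hephaestin RNA was measured in every colon and was much lower in the liver with the main probe. With the main probe, Heph was well above background in Cy3 on 12 of 12 colon arrays and on 1 of 12 liver arrays, liver HF-low-suf replicate 4, while the reference channel was well above background on all 24. The raw Cy3 signal of the livers was above the 95th percentile of the 153 negative control spots of the same array in 4 of the 6 mice kept on the low diet and in 5 of the 6 moved to the sufficient one. In the colon, the log2 ratio ranged from -0.07 through a median of 0.29 to 0.41. In the liver it ranged from -3.83 through -3.06 to -1.25. No liver reached the lowest colon, and the liver was lower than the colon in 12 of 12 mice, with differences of -4.12 to -1.37 on the log2 scale. The fitted difference of liver minus colon was -3.08 (SE 0.23, limma, Benjamini-Hochberg adjusted P = 1.00e-11). With each liver set to the lowest signal among probes well above background, or to its own signal where that was higher, the colon mean was at least 8.0-fold higher. This bound is on the means and makes no allowance for the spread among mice. The 95% interval of the fitted difference was -3.55 to -2.61. The difference was -3.17 with no background subtracted, -3.45 with plain subtraction and -4.78 with the signals processed by the scanner software, in the same direction. The other Heph probe, not well above background on any array, was lower in the liver in 8 of 12 mice, and the mean over both probes was -1.67. Since the gene was selected on the colon values of that probe, these are descriptions without a test. Without the 2 mice whose reference channel stood apart, the difference with the main probe was -3.33.

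**Figure D1:**
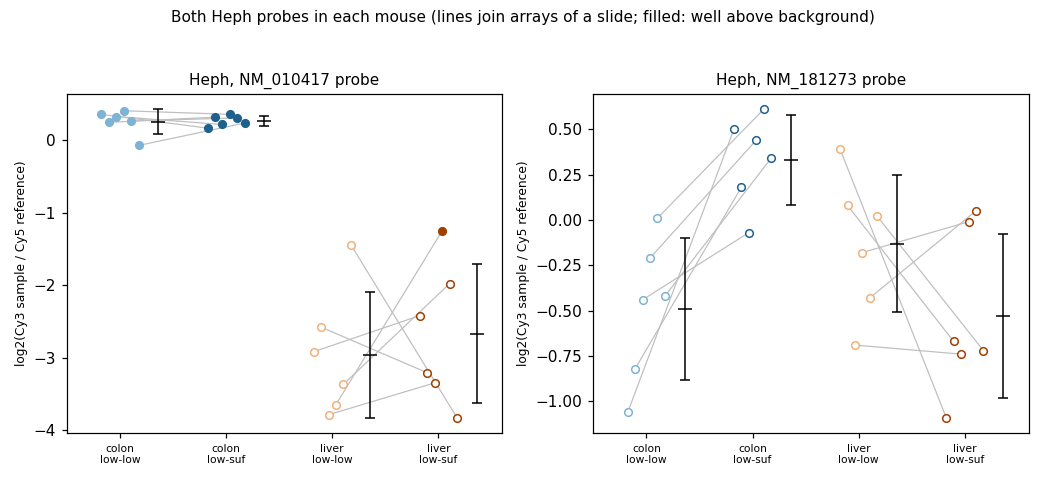
Log2 ratio of Cy3 sample to Cy5 reference (y axis) of the 2 Heph probes in the 4 groups (x axis); each point is 1 mouse, filled where the probe was well above background, bars are mean and SD (n = 6), and grey lines join the arrays of 1 slide within a tissue. With the NM_010417 probe all 12 colons lie between -0.07 and 0.41 and above all livers, and with the NM_181273 probe no array was well above background.

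With the main probe, the levels of Heph in the colon on the 2 diets overlapped. The HF-low-low colons ranged from -0.07 through a median of 0.30 to 0.41, and the HF-low-suf colons from 0.17 through 0.28 to 0.36. The group means were 0.26 ± 0.17 and 0.27 ± 0.07 (SD, n = 6 each), the difference was 0.01 (SE 0.12, 95% interval -0.25 to 0.27), and HF-low-suf was higher on 3 of 6 slides. The difference was 0.18 with median centring and 0.42 (SE 0.12) with the mean over both probes, which includes the probe on which the gene was selected. The spread of Heph among colons was small: among probes well above background on all 6 arrays of a group, its SD was at the 16.6th percentile in HF-low-low and at the 1.34th in HF-low-suf. In the liver, the HF-low-low mice ranged from -3.79 through -3.14 to -1.44 and the HF-low-suf mice from -3.83 through -2.81 to -1.25. The diet difference in the liver was 0.29 (SE 0.46, 95% interval -0.69 to 1.26, exact permutation P = 0.597), a wide interval, with 11 of 12 livers not well above background. Leaving out each liver in turn gave 0.00 (without HF-low-suf replicate 4, whose reference channel stood apart and which was the liver array well above background) to 0.59 (without HF-low-low replicate 6).

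The probe for transcript variant 2 of Heph, through which the gene entered the list, was not well above background on any of the 24 arrays. In the colon its log2 ratio ranged from -1.06 through -0.43 to 0.01 in HF-low-low and from -0.07 through 0.39 to 0.61 in HF-low-suf. The group means were -0.49 ± 0.39 and 0.33 ± 0.25 (SD, n = 6 each), with overlapping ranges, as a description of the values on which the gene was selected. This direction, taken from the dyes in the labels, is opposite to the one the study gives for this probe. Over all probes, 66 of the 69 probes called in the colon and 37 of the 45 called in the liver were higher in HF-low-suf, 95.7% and 82.2%. The share in the colon was 79.2% with the signals processed by the scanner software and 80.8% with median centring, and that in the liver 37.5% with plain background subtraction and 61.4% with the processed signals. With only probes well above background on at least 6 arrays, 3 of the 3 called in the colon and 0 of the 2 called in the liver were higher. The raw Cy3 signal of the variant 2 probe was 124 to 186 in the HF-low-low colons and 182 to 255 in the HF-low-suf colons. It was above the 95th percentile of the 153 negative control spots of the same array in 0 of 6 and 5 of 6 of them, respectively, and in 0 of 12 livers. No fold change is given, since both groups were not well above background. In the liver the group means of the same probe were -0.13 ± 0.38 and -0.53 ± 0.45 (exact permutation P = 0.119).

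Across the 10 genes, the tissues differed far more than the diets. Between liver and colon, 7 of 10 main probes were called at an adjusted P below 0.05 and a fold above 1.5, 4 higher in the liver (Tfr2, Trf, Cp and Hfe) and 3 lower (Heph, Cybrd1 and Slc11a2). Cybrd1 was called on its fitted difference, but 0 of 12 livers were well above background and its bound was 1.37-fold, under that fold. The call of Slc11a2 rests on its main probe, and with the mean over all probes of a gene 5 of the 10 genes were called. Of all 41174 probes 23.6% were called, 11.4% higher and 12.2% lower in the liver, and of the 17020 probes well above background on at least 12 arrays 45.5%. With median centring in place of loess, 29.4% of the called probes were higher in the liver, against 48.3% here. The median size of the difference was 1.39 for the 10 genes, 0.21 for all probes and 0.52 for probes well above background on at least 12 arrays. At an adjusted P below 0.05 with no limit on the fold, 9 of 10 main probes passed, against 38.4% of all probes: Fth1 and Slc40a1 were lower in the liver at folds under 1.5, and Tfrc did not pass. The colon and liver ranges of Heph, Cp, Tfr2, Trf, Slc11a2 and Hfe did not overlap (6 of 10), as was the case for 12.5% of all probes.

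**Figure D2:**
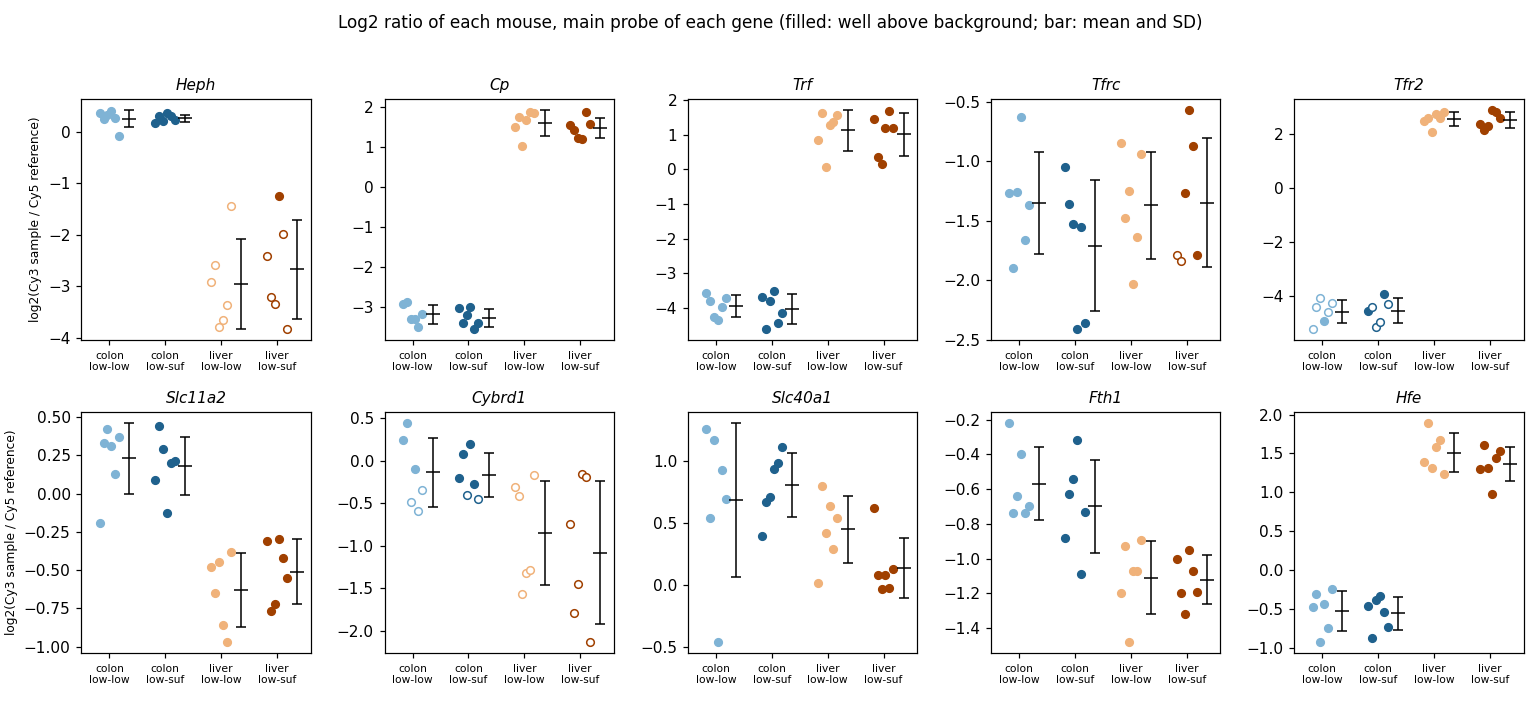
Log2 ratio of Cy3 sample to Cy5 reference (y axis, own scale per gene) of the main probe of each of the 10 genes in the 4 groups (x axis); each point is 1 mouse, filled where the probe was well above background, and bars are mean and SD (n = 6). Cp, Trf, Tfr2 and Hfe are higher in all livers than in any colon, Heph and Slc11a2 lower, and the 2 diets overlap in each tissue for all 10.

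Ceruloplasmin and transferrin, the plasma partners of the iron that leaves cells, were both high in the liver and still measurable in the colon. Cp was well above background on all 24 arrays and ranged from -3.54 through -3.24 to -2.88 in the colon and from 1.01 through 1.55 to 1.86 in the liver. It was higher in the liver in 12 of 12 mice, with a difference of 4.75 (SE 0.10, 26.9-fold, adjusted P = 2.01e-23). Trf was also well above background on all 24 arrays. It ranged from -4.61 through -3.90 to -3.51 in the colon and from 0.06 through 1.24 to 1.70 in the liver. The difference of 5.07 (SE 0.18, 33.5-fold, adjusted P = 5.83e-19) was positive in 12 of 12 mice. The ferroxidases ran in opposite directions between the tissues, Heph higher in the colon and Cp in the liver.

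The receptors of transferrin differed from each other. Tfr2, the receptor of iron sensing in hepatocytes, was measured in every liver and in few colons. It was well above background on 12 of 12 liver arrays and 3 of 12 colon arrays, and ranged from -5.22 through -4.48 to -3.91 in the colon and from 2.08 through 2.60 to 2.91 in the liver. The fitted difference, against colons of which 9 were not well above background, was 7.11 (SE 0.14, adjusted P = 1.16e-24), and it was 6.69 with the Cy3 channel alone and 8.29 with the signals processed by the scanner software. Tfrc, the receptor for uptake in most cells, ranged from -2.41 through -1.45 to -0.63 in the colon and from -2.03 through -1.37 to -0.57 in the liver. Its ranges overlapped almost fully, and the difference of 0.17 (SE 0.18, 95% interval -0.20 to 0.54, adjusted P = 0.539) was positive in 9 of 12 mice. It changed sign, to -0.06, without the 2 mice whose reference channel stood apart and, to -0.24, with median centring.

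Hfe, a protein related to the class I major histocompatibility molecules that binds Tfrc and Tfr2, was higher in the liver with both of its probes. The main probe, well above background on all 24 arrays, ranged from -0.93 through -0.47 to -0.25 in the colon and from 0.98 through 1.41 to 1.89 in the liver. The difference was 1.98 (SE 0.10, 3.94-fold, adjusted P = 1.56e-15), and in the same direction in 12 of 12 mice. The other Hfe probe (AJ306425) was well above background on 4 of 12 colon and 8 of 12 liver arrays. It gave 1.11 (SE 0.13, adjusted P = 9.30e-08), again with no overlap.

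The genes of uptake gave results that turned on the probe. The main Slc11a2 probe was well above background on all 24 arrays and was lower in the liver in 12 of 12 mice. It ranged from -0.19 through 0.25 to 0.44 in the colon and from -0.97 through -0.52 to -0.30 in the liver, without overlap, a difference of -0.77 (SE 0.09, adjusted P = 7.53e-08). The AK148276 probe of the same gene gave 0.15 (SE 0.10, adjusted P = 0.277). The second NM_008732 probe gave 0.43 (SE 0.10, adjusted P = 0.000608), higher in the liver in 12 of 12 mice, with 5 colon and 6 liver arrays well above background. The mean over the Slc11a2 probes was -0.07 and was not called. Transcripts of Slc11a2 are known to differ at both ends, and which of them each probe measured was not tested.

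Cybrd1 was measurable in some colons and in no liver. Its main probe (XM_910566) was well above background on 7 of 12 colon and 0 of 12 liver arrays. It ranged from -0.59 through -0.24 to 0.44 in the colon and from -2.13 through -1.02 to -0.16 in the liver. The fitted difference was -0.81 (SE 0.19, adjusted P = 0.00130), lower in the liver in 10 of 12 mice. Since the livers give only a bound, the colon level was at least 1.37-fold higher, taking for each liver the lowest signal among probes well above background or the probe's own where that was higher. The other Cybrd1 probes were well above background on 0 and 1 of 24 arrays and were not called (adjusted P = 0.803 and 0.374), nor was the mean over the probes, -0.30.

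Ferroportin and ferritin heavy chain, the genes of export and storage, were lower in the liver by less than the fold required. Both were well above background on all 24 arrays. Slc40a1 ranged from -0.46 through 0.82 to 1.26 in the colon and from -0.03 through 0.21 to 0.80 in the liver. The liver was lower in 9 of 12 mice, by 0.45 on the log2 scale (SE 0.15, adjusted P = 0.0140, 1.37-fold). The lowest colon value came from HF-low-low replicate 4, and without that mouse the difference was -0.59, past the fold of 1.5. It was also past that fold with median centring (-0.79) and with the Cy3 channel alone (-0.71). Fth1 ranged from -1.09 through -0.67 to -0.22 in the colon and from -1.48 through -1.07 to -0.89 in the liver. It was lower in the liver in 11 of 12 mice, by 0.48 (SE 0.09, adjusted P = 8.33e-05, 1.39-fold). With plain background subtraction, with the processed signals and with the Cy3 channel alone the difference was -0.61, -0.73 and -0.90, past that fold.

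**Figure D3:**
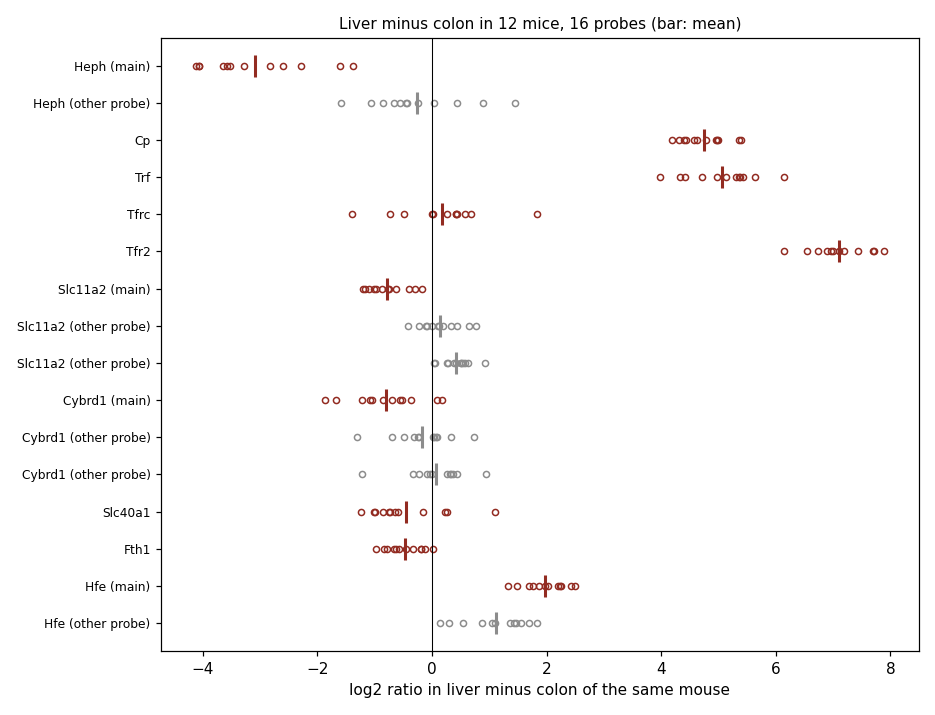
Log2 ratio in the liver minus that in the colon of the same mouse (x axis) for the 16 probes of the 10 genes (y axis); each circle is 1 of 12 mice, the bar is the mean, and red marks the main probe of a gene and grey the others. All 12 mice lie above 0 for Cp, Trf, Tfr2 and Hfe and below 0 for the main probes of Heph and Slc11a2, while the other probes of Slc11a2, Cybrd1 and Heph lie nearer 0 or on the other side.

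The diet after weaning moved none of the main probes tested past the threshold, Heph in the colon not being tested. With the study's criteria (P below 0.01 before adjustment, fold over 1.5), 0 of the 9 main probes tested were called in the colon and 0 of 10 in the liver, against 0.168% and 0.109% of all probes, so that a count of 0 is what the background share gives for lists of this size. No main probe tested had an unadjusted P below 0.05 in limma in either tissue, where 2.99% (colon) and 2.18% (liver) of all probes did, and 0.00% of all probes passed Benjamini-Hochberg adjustment in either. The exact permutation test over the 924 assignments of the 12 mice gave P from 0.236 to 0.890 for the 9 genes in the colon and from 0.0693 to 0.965 for the 10 in the liver. The median size of the diet difference was 0.08 for the 9 genes tested in the colon and 0.13 for the 10 in the liver, and over all probes 0.12 and 0.11.

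**Figure D4:**
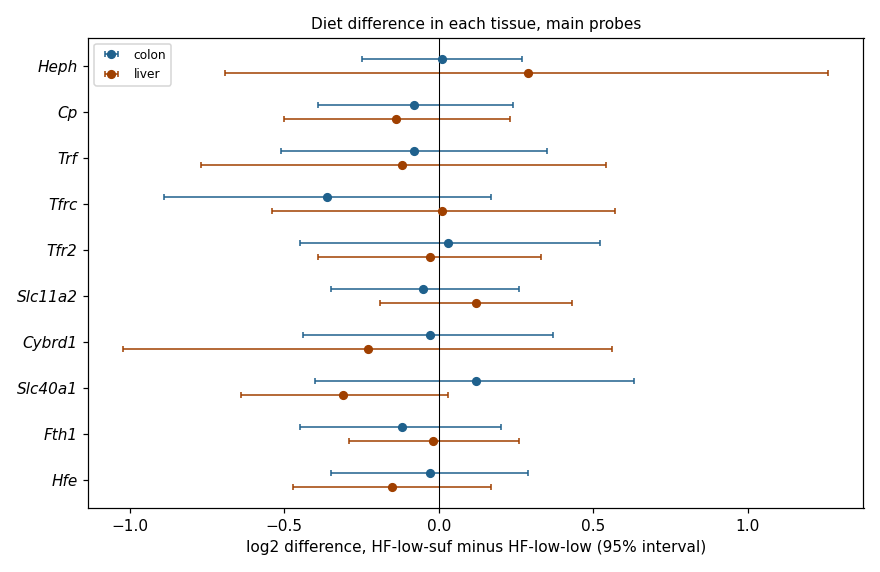
Log2 difference of HF-low-suf minus HF-low-low (x axis) of the main probe of each gene (y axis) in the colon (blue) and the liver (brown), with 95% intervals from limma (6 arrays against 6). The interval of Heph in the colon is a description without a test, all the others include 0, and the widest is that of Heph in the liver, -0.69 to 1.26.

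The ferroxidase Cp and its carrier partner Trf differed little between the diets. In the colon, Cp ranged from -3.50 through -3.23 to -2.88 in HF-low-low and from -3.54 through -3.29 to -2.99 in HF-low-suf, a difference of -0.08 (95% interval -0.39 to 0.24). In the liver, its difference was -0.14 (-0.50 to 0.23), from means of 1.60 ± 0.32 and 1.46 ± 0.25. Trf gave -0.08 (-0.51 to 0.35) in the colon and -0.12 (-0.77 to 0.54) in the liver. Its ranges in the liver were 0.06 to 1.63 and 0.17 to 1.70, and the interval covers changes of over 1.5-fold in the direction of lower levels.

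Tfrc varied widely among mice on the same diet. In the colon it ranged from -1.90 through -1.32 to -0.63 in HF-low-low and from -2.41 through -1.54 to -1.05 in HF-low-suf. The difference was -0.36 (SE 0.25, 95% interval -0.89 to 0.17, exact permutation P = 0.236), and it was 0.16 among slides scanned on the first day and -0.89 on the second. In the liver the group means were -1.37 ± 0.45 and -1.35 ± 0.54, a difference of 0.01 (-0.54 to 0.57), which was -0.44 and 0.46 within the scan days. The SD of Tfrc within the 4 groups lay at the 83.3rd to 96.4th percentile of probes well above background on all 6 arrays of the group.

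Tfr2 and Hfe, the sensing pair, gave differences of -0.03 (95% interval -0.39 to 0.33) and -0.15 (-0.47 to 0.17) in the liver. Tfr2 ranged there from 2.08 through 2.60 to 2.84 in HF-low-low and from 2.15 through 2.51 to 2.91 in HF-low-suf. With the loess normalization used here, both intervals exclude a 1.5-fold change in either direction. With median centring the SE was 0.28 for Tfr2 and 0.27 for Hfe, against 0.17 and 0.15 with loess. In the colon the difference of Hfe was -0.03 (-0.35 to 0.29), and that of Tfr2, with 3 of 12 arrays well above background, 0.03 (-0.45 to 0.52).

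Among the genes of uptake, the main Slc11a2 probe differed by -0.05 (95% interval -0.35 to 0.26) in the colon, from 0.23 ± 0.23 to 0.18 ± 0.19, and by 0.12 (-0.19 to 0.43) in the liver. Its other probes gave -0.14 and -0.11 in the colon and -0.07 and 0.02 in the liver. The main Cybrd1 probe gave -0.03 (-0.44 to 0.37) in the colon, where 3 and 4 of 6 arrays were well above background. In the liver it was not well above background in either group. The Cybrd1 probe for BC027665, dim on all 24 arrays, was the only probe of the 10 genes tested with an unadjusted P below 0.05 for diet. In the liver it had P = 0.0423 in limma before adjustment and an exact permutation P of 0.0758, and no difference is given for it.

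Slc40a1 in the liver came nearest to a diet difference among the main probes. HF-low-low livers ranged from 0.02 through 0.48 to 0.80 and HF-low-suf livers from -0.03 through 0.08 to 0.62. The HF-low-suf value was lower by 0.31 (SE 0.16, 95% interval -0.64 to 0.03, exact permutation P = 0.0693), on 5 of 6 slides and by 0.18 and 0.43 within the scan days. HF-low-suf replicate 1 lay far above the other 5 of its group, and without it the difference was -0.40 with an unadjusted P of 0.0170 in limma, a fold below 1.5. In the colon the difference was 0.12 (-0.40 to 0.63), and it was -0.40 on the first scan day and 0.63 on the second. Fth1 gave -0.12 (-0.45 to 0.20) in the colon and -0.02 (-0.29 to 0.26) in the liver, and the liver interval excludes a 1.5-fold change.

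The effect of diet was compared between the tissues in 1 fit over the 24 arrays. Of the 9 main probes tested 0 passed Benjamini-Hochberg adjustment (smallest adjusted P = 0.876) and 0 had an unadjusted P below 0.05, against 0.00% and 6.41% of all probes. Of the other probes, the Cybrd1 probe for AK029112, well above background on 1 of 24 arrays, had an unadjusted P of 0.0486 (adjusted P = 0.773). Liver minus colon, Slc40a1 was at -0.42 (SE 0.29) and Tfrc at 0.37 (SE 0.36). Without the 2 mice whose reference channel stood apart these were -0.28 and -0.08, and Slc11a2 moved from 0.16 to 0.01. No value is given for Cybrd1, which was not well above background in any liver. For Heph, whose colon values entered the choice, the difference between tissues was 0.27 (SE 0.46) with the main probe and -0.22 without those mice, as a description.

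Some of the genes varied together among mice on the same diet. Over the 12 livers, with diet means subtracted, Trf correlated with Fth1 at 0.871, with Cp at 0.837 and with Tfr2 at 0.807, and over the 12 colons Cp with Trf at 0.778. The most negative pairs were Slc11a2 with Hfe (-0.673) and Tfrc with Hfe (-0.658) in the liver and Trf with Slc11a2 (-0.668) and Tfrc with Slc40a1 (-0.559) in the colon. The pairs compared left out Heph and Cybrd1 in the liver and Tfr2 in the colon. Points of a correlation share an array, its reference channel and its normalization, so these are descriptions. Among 13129 probes with a gene name that had a value and were well above background on all 12 colon arrays, the 5 genes whose levels, with diet means subtracted, most resembled the main Heph probe over the 12 colons were Frag1 (0.959), Mat2b (0.955), Tjp1 (0.952), Fbxl5 (0.947) and Cyp39a1 (0.946). Unlike Heph, these were well above background on 10 to 12 of 12 livers, and their differences of liver minus colon ran from -0.62 to 1.49. Their correlations are the highest picked from 13129 probes over 12 arrays. Heph varied little among colons, and HF-low-low replicate 6 (-0.07, the nearest of its group at 0.25) lay apart. How far the correlations rest on that array was not tested.

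The wider pathway was followed in 53 other genes of iron handling, of which 46 were on the array. Between the tissues 20 were higher in the liver, 8 lower and 18 not called, where 23.6% of all probes and 45.5% of those well above background on at least 12 arrays were called. By diet 0 were called (background 0.168% for the colon and 0.109% for the liver) and 0 had an unadjusted P below 0.05 in either tissue (background 2.99% and 2.18%). On the hepcidin axis, 4 of 15 genes were higher and 5 lower in the liver. The higher ones were Hamp1, which encodes hepcidin, at 4.29 (SE 0.12), its paralogue Hamp2 at 4.59 (SE 0.14), the protease Tmprss6, which restrains hepcidin, at 5.50 (SE 0.16), and Hfe2, which encodes the co-receptor hemojuvelin, at 2.99 (SE 0.16). In the colon these were well above background on 8, 1, 10 and 7 of 12 arrays, so that the difference of Hamp2 was measured against colons of which nearly all were not well above background. The lower ones, named after their values were seen, were the receptors Bmpr1a and Neo1, the signal transducers Smad1 and Smad4, and Id1, a target of bone morphogenetic protein signals. Sequence shared by Hamp1 and Hamp2 means that their probes may not separate them fully. Hamp1 in the liver ranged from 1.76 through 2.13 to 2.43 in HF-low-low and from 1.86 through 1.98 to 2.62 in HF-low-suf, a difference of -0.01 (SE 0.17).

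The genes of storage and chaperoning gave 3 of 6 higher in the liver. They were the ferritin light chains Ftl1 (1.26) and Ftl2 (1.35) and the ferritin autophagy receptor Ncoa4 (0.82), while the heavy chain Fth1 ran lower as given above. Of the reductases and other uptake genes, 4 of 9 were higher, among them the reductase Steap4 (2.29, well above background on 4 of 12 colons) and the transporter Slc39a14 (1.32), and 2 were lower, Scara5 and Steap1. Scara5 was well above background on 1 of 12 livers and Steap1, named after its values were seen, on 0 of 12, and their colon levels were at least 1.74-fold and 1.81-fold higher by the bound used for Heph. Steap2, also counted as higher, was well above background on 2 arrays of each tissue. Of 6 mitochondrial genes 4 were higher, among them the mitochondrial carrier Sfxn1 (0.95) and the cysteine desulfurase Nfs1 (0.71). Of 4 genes of heme and haemoglobin capture 3 were higher, with haptoglobin, Hp, at 6.25 and heme oxygenase Hmox1 at 1.39. Of the 3 genes that supply copper, Atp7b (1.29) was higher and Atp7a (-0.72) lower in the liver. Of 3 genes of iron sensing, the iron-responsive element binding protein Aco1 (0.94) was higher.

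**Figure D5:**
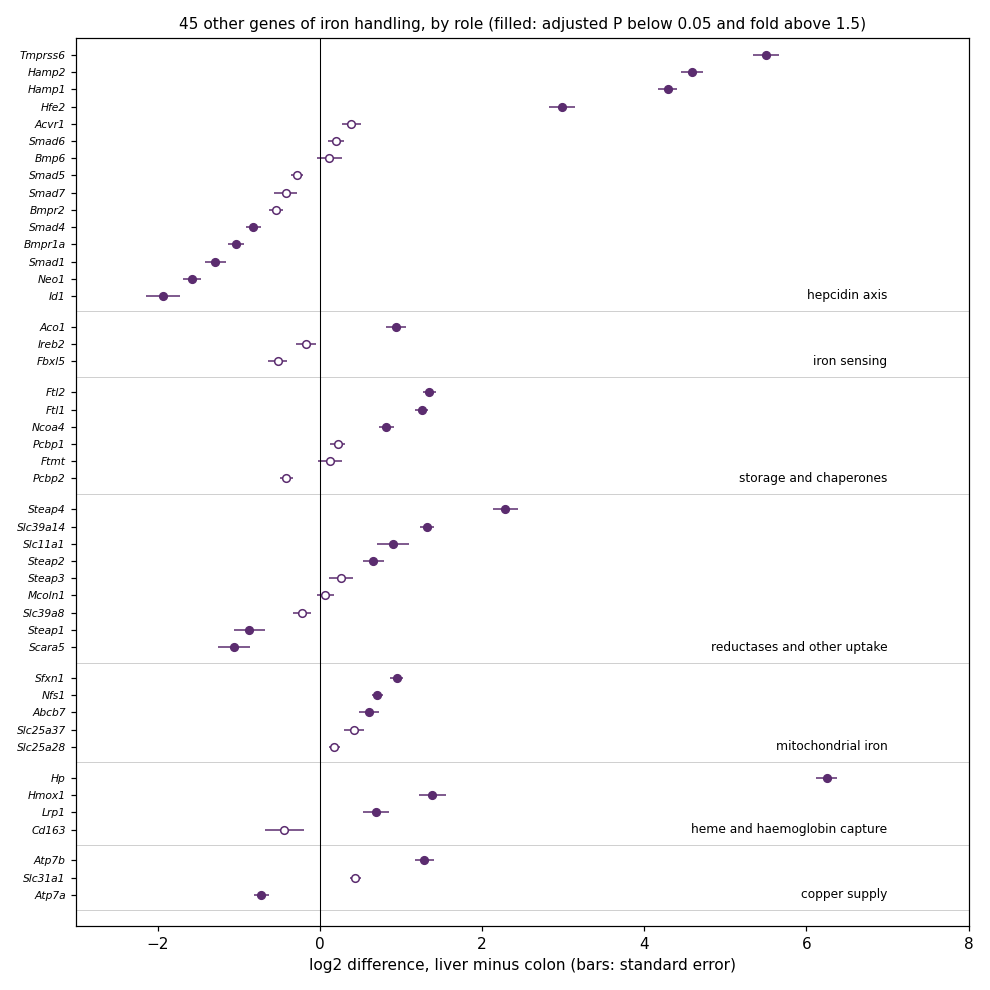
Log2 difference of liver minus colon (x axis) with its standard error for 45 of the 46 other genes of iron handling (y axis), in 7 groups by role; filled points were called (adjusted P below 0.05 and fold above 1.5). The secreted and hepcidin-related genes Hp, Tmprss6, Hamp2 and Hamp1 lie farthest to the right, between 4.29 and 6.25, and Hamp2 was well above background on 1 of 12 colon arrays.

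Markers of several cell types moved with the tissue beside these genes. All 7 macrophage markers were higher in the liver, where their mean log2 ratio was 0.80 to 2.99 in HF-low-low and 1.64 to 2.53 in HF-low-suf, against -1.53 to -0.70 and -1.50 to -0.82 in the colon. Of 5 erythroid markers 4 were higher in the liver, and of 5 skeletal muscle markers 3. All 5 smooth muscle and all 4 adipose markers were lower there. In livers, the mean of the adipose markers ranged from -2.30 to -0.53 in HF-low-low and from -1.72 to 3.71 in HF-low-suf. In colons it ranged from 3.09 to 3.92 in HF-low-low and from 1.71 to 3.6 in HF-low-suf. The mean of the skeletal muscle markers ranged from -4.87 to -4.03 in HF-low-low livers and from -4.66 to -2.29 in HF-low-suf livers. In colons the mean of these muscle markers was -4.99 to -4.32 and -5.22 to -4.38. The median diet difference of the 4 adipose markers was -0.48 in the colon, where Plin had an unadjusted P of 0.0440 in limma, and 1.04 in the liver. No marker was called by diet. Macrophages and red cell precursors are known to carry Slc40a1 and Tfrc, respectively, and the part of these cells in the tissue and diet values was not tested.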

How the data were processed

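The authors deposited 1 Feature Extraction (9.5.3.1) file per array. The intensity values used, as deposited, are the mean raw Cy3 and Cy5 signal of each spot and the median of its local background, before loess normalization. Mean signals were corrected with normexp (offset 50), 1639 control spots of 45018 were left out, arrays were normalized by loess in limma 3.58.1 (R 4.3.3), spots flagged as outliers were dropped, and repeated spots were averaged to 41174 probes. Log2 ratios (Cy3 over Cy5) were tested on all probes with lmFit and eBayes, within each tissue for diet and over 24 arrays, mouse as random block, for liver against colon and for the difference between tissues (duplicateCorrelation, statmod 1.5.0, correlation 0.158). The deviations of colon and liver of a mouse from their group means correlated at -0.123 to 0.455 over 9012 probes. Single values were tested two-sided by exact permutation, over 4096 sign assignments between tissues. Arrays of a group are separate mice and correlated at 0.656 to 0.936. Well above background means the flag of that name in Cy3 in the deposited files. Names are those of the files, with 1 gene matched through a RefSeq table. Positions are in build mm7. Members, lists and markers were chosen with earlier results of these data known. The 10 members are always named; of other iron genes up to 3 per role, those called with the widest liver minus colon difference, with Hamp1, Hamp2, Tmprss6 and Hfe2 always named; a few others were named after their values were seen. Values of 1 iron gene and 1 marker are not reported here. Alternatives were other background corrections and normalizations, outlier spots kept, a filter on dim probes, the mean over probes, scan day, blocks, 1 fit over all arrays, and leaving out arrays or mice. Leaving out the mice HF-low-suf 4 and 5, or livers HF-low-suf 1 and 2, was added after seeing the data.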

Additional observations from a re-analysis of the deposited data

Results flagged for a closer look

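Of 40 sets of 6 arrays (10 main probes in 4 groups), 2 held an array far from the other 5, by a criterion that chance meets in about 1 in 20 sets. Heph in colon HF-low-low replicate 6 was at -0.07, and the nearest of its group was at 0.25. Without it the diet difference of Heph in the colon was -0.06. Slc40a1 in liver HF-low-suf replicate 1 was at 0.62, and the nearest of its group was at 0.13. Without it the diet difference of Slc40a1 in the liver was -0.40.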

How the results depend on the processing

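The count of genes called stayed at 0 for diet in colon, diet in liver and the difference of diet between tissues under each of the 24, 25 and 25 alternatives run, the replicate block included (0 in all 3 comparisons with the slide as a replicate block). Between liver and colon it lay between 5 (mean of all probes of a gene) and 9 (Cy3 channel alone), with 7 to 8 when mice were left out in turn, and it was 7 both with no block and with the mouse as a fixed block. The background moved more: of all probes, 69 were called by diet in the colon here and 3 (filter on dim probes) to 257 (without colon HF-low-low replicate 5) in the alternatives, 45 in the liver and 2 (median centring) to 298 (without liver HF-low-low replicate 3), and 9703 between liver and colon and 6312 (mean over probes, fewer rows) to 13772 (processed signals). Of 987 values of single genes in the alternatives, 74 had the opposite sign to the value given, 0 of them called in either setting. Those that moved by more than their standard error as well, among values tested, were Tfrc between liver and colon (-0.09 with processed signals, -0.24 with median centring, -0.06 without the mice HF-low-suf 4 and 5), Tfrc in the difference between tissues (-0.08 without those mice), and Cp (0.08) and Slc11a2 (0.11) for diet in the colon with median centring. The cause was not tested. Heph, not tested, turned in the difference between tissues from 0.27 to -0.47 with the mean over its probes, and for diet in the colon moved from 0.01 to 0.42 with that mean and to 0.18 with median centring. Processed signals also moved the median of all probes between liver and colon to -0.19, so relative to it Tfrc was not lower. The slide pairs arrays unevenly: deviations of the 2 diets on a slide correlated at -0.383 to 0.532 in the colon and -0.0593 to 0.782 in the liver. Signal over background limits Heph and Cybrd1 in the liver, Tfr2 in the colon and the Heph variant 2 probe in both tissues.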
